A study of Sparus aurata with 16 samples.

Results

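Alanine aminotransferase (ALT) catalyses the reversible transfer of the amino group of alanine to 2-oxoglutarate, which yields pyruvate and glutamate. The reaction joins amino acid catabolism to glycolysis and gluconeogenesis, and in carnivorous fish, which oxidise much dietary amino acid, it is abundant in the liver. In gilthead sea bream (Sparus aurata) cALT1 and cALT2 have been described as cytosolic forms that arise from a single gene by alternative splicing, while mALT is the mitochondrial enzyme. cALT1 and cALT2 are 2 of the 25225 sequences on the oligonucleotide array. They were chosen by name, as all non-control spots that carried either symbol, which gave 4 probes (2 for cALT1 and 2 for cALT2), each spotted in duplicate, or 8 spots per array.

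The samples came from juvenile fish, 4 per condition for each tissue, taken after 23 days. Starved fish received no food over that time. Fed fish received 25 g/kg body weight daily of LLH (low protein, low lipids, high carbohydrates), MHL (medium protein, high lipids, low carbohydrates) or HLL (high protein, low lipids, low carbohydrates). Liver and white skeletal muscle were hybridised on 16 two-colour arrays, 8 per tissue, and each array carried labelled RNA of 1 fish in Cy5 and of 1 fish of another condition in Cy3. The labels do not give the aquarium of each fish, so that P values measure the spread between these fish, and 4 fish per condition limit the precision. On 1 liver array the sample title puts the Cy5 fish under HLL, whereas its source name reads LLH. It was counted as HLL fish 1, which gives 4 livers per condition, the number that the authors state. Read as LLH, it would leave 3 livers with HLL and give 5 with LLH. Shares of called sequences are those of the HLL reading unless stated. Where the other reading lost a call of cALT1 or cALT2, its values are given beside the result.

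Every spot of both sequences was bright enough to be measured. In each tissue 64 of 64 cALT1 spots and 64 of 64 cALT2 spots were well above background, against 57.9 to 66.6% of all spots in the liver arrays and 56.0 to 65.3% in the muscle arrays. None was saturated or marked as an outlier. The brightest raw signal of cALT1 was 133634, in a Cy5 channel of the liver, while the lowest saturation value of the arrays was 777069. Levels are given as normalised log2 intensity, on which a difference of 1 is a 2-fold change. Because probes differ in how strongly they bind, the level of cALT1 is not set against that of cALT2. Which transcript each probe binds is not known. Values given for cALT1 or cALT2, also where called transcripts, are signals of the probes of that name.

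In the liver, cALT1 mRNA levels were lowest in starved fish and highest in fish fed HLL. The 4 starved livers had log2 intensities of 13.60, 14.43, 14.55 and 14.33. Fish fed LLH had 15.08, 14.55, 15.21 and 15.49, fish fed MHL had 15.14, 15.66, 14.90 and 15.11, and fish fed HLL had 15.83, 16.22, 16.02 and 15.96. All 4 starved fish lay below all 12 fed fish, although starved fish 3 and LLH fish 2 almost met, at 14.546 and 14.549. Such a separation, with starved fish lower, was found for 5.79% of all sequences. The means were 14.23 ± 0.43 in starved fish, 15.08 ± 0.39 in fish fed LLH, 15.20 ± 0.32 in fish fed MHL and 16.01 ± 0.16 in fish fed HLL (SD, n = 4 each).

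cALT2 gave almost the same values in the same livers. Its log2 intensities were 13.55, 14.47, 14.50 and 14.38 in starved fish. They were 15.04, 14.53, 15.23 and 15.59 in fish fed LLH, 15.11, 15.66, 14.88 and 15.22 in fish fed MHL, and 15.87, 16.22, 16.03 and 16.04 in fish fed HLL. Again all 4 starved fish lay below all 12 fed fish, and again the narrowest gap was between starved fish 3 and LLH fish 2, at 14.50 and 14.53. Group means were 14.22 ± 0.45, 15.10 ± 0.44, 15.22 ± 0.32 and 16.04 ± 0.14 for starved, LLH, MHL and HLL fish (SD, n = 4 each).

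**Figure D1:**
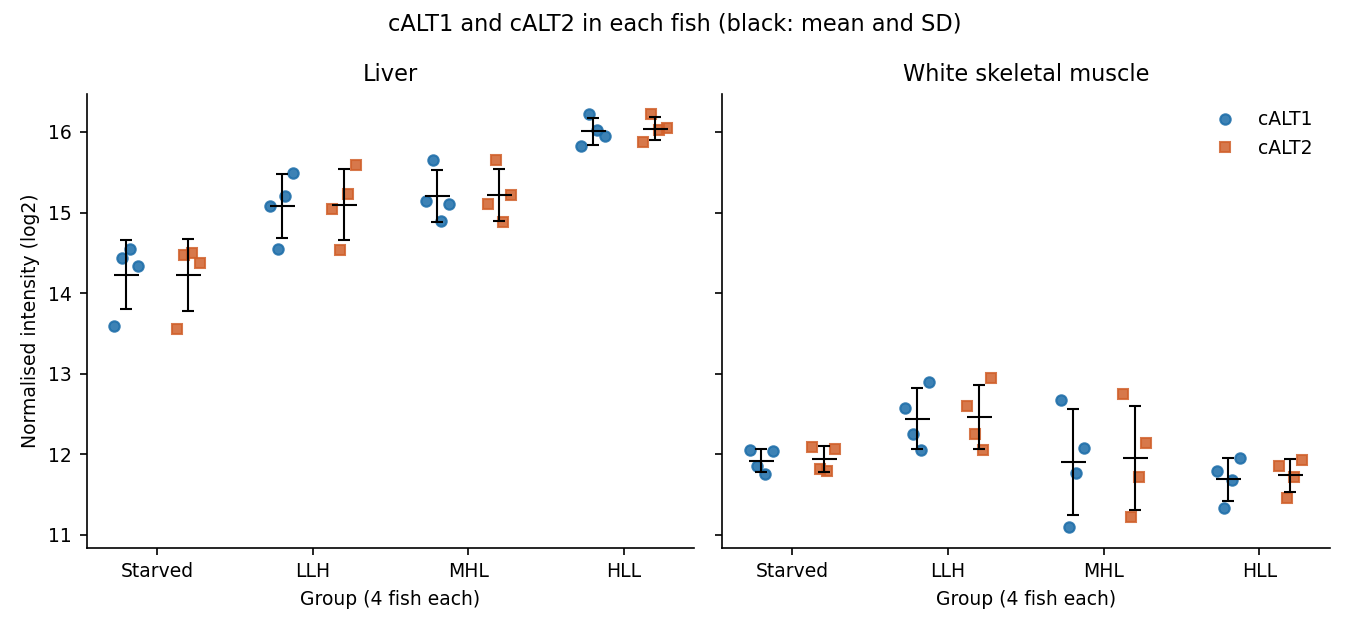
Normalised log2 intensity (vertical axis) of cALT1 (circles) and cALT2 (squares) in each fish, for starved fish and fish fed LLH, MHL or HLL, with the mean and SD of 4 fish in black. The tissues were normalised separately. In the liver the starved fish are at 14.55 or below and every fish fed HLL is at 15.83 or above, while in the muscle the groups overlap.

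Both transcripts fell in the liver of starved fish against each of the diets (limma, Benjamini-Hochberg adjusted over 25225 sequences). Against HLL, the low-lipid diet richest in protein, cALT1 was 3.57-fold lower, a log2 difference of -1.84 ± 0.22 (SE, adjusted P value 6.08e-05 by limma, 95% interval -2.31 to -1.36). Against MHL the difference was -1.02 ± 0.23 (SE, limma adjusted P value 0.0054), and against LLH it was -0.84 ± 0.22 (SE, limma adjusted P value 0.0133). For cALT2 the differences were -1.87 ± 0.23 against HLL (adjusted P value 6.98e-05 by limma, 3.66-fold lower), -1.04 ± 0.24 against MHL (0.0059) and -0.87 ± 0.23 against LLH (0.0143). Of all sequences, 12.4% were called lower in starved fish than with HLL, 11.2% than with MHL and 10.9% than with LLH.

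The size of these differences put both sequences near the end of the range. Only 275 of the 25225 sequences (1.09%) had a more negative value than cALT1 in starved against HLL livers, and 266 (1.05%) had a more negative value than cALT2. All sequences were ranked, also dim ones, and 18517 had a probe well above background in at least 4 liver channels. Among those, 34.7% were called in either direction for starved against HLL, in place of 25.4%. For LLH against HLL the share was 3.27%, in place of 2.19%. Against the mean of the 3 diets, cALT1 was 2.35-fold lower in starved fish (-1.23 ± 0.18, SE, limma adjusted P value 1.95e-04) and cALT2 was 2.40-fold lower (-1.26 ± 0.19, limma adjusted P value 2.19e-04), where 14.1% of sequences were called lower. In an extract of whole liver, fewer cells of a type and less RNA per cell cannot be told apart.

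The calls against HLL, MHL and the mean of the diets held without any single fish and under each of the 14 other settings tried. The call against LLH was lost without LLH fish 4, which was the highest of its group (cALT1 -0.64, adjusted P value 0.0557; cALT2 -0.63, 0.0553). It was also lost when log ratios were fitted in place of the separate channels (cALT1 -0.79, adjusted P value 0.0915; cALT2 -0.84, 0.0840) and with the authors' normalised ratios (-0.76, 0.0723 and -0.81, 0.0642).

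The arrays that held starved and fed livers side by side gave the same direction in each case. Starved minus HLL, read within an array, was -2.23 and -1.79 for cALT1, and -2.32 and -1.75 for cALT2. The first value of each came from the array of the doubly labelled fish. With that fish counted as HLL, starved minus LLH was smaller in size, at -0.66 and -1.16 for cALT1 and at -0.73 and -1.21 for cALT2. Read as LLH, that array would give -2.23 and -2.32 for starved minus LLH. Starved minus HLL would then rest on the other array alone. No array of either tissue paired starved fish with fish fed MHL, or fish fed LLH with fish fed HLL, so that these differences were estimated across arrays only.

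Among fed fish, liver levels of both sequences were highest with HLL, and those with LLH and MHL were close to each other. Fish fed LLH, the diet low in protein and high in carbohydrates, had 1.99-fold less cALT1 than fish fed HLL, a difference of -0.99 ± 0.23 (SE, limma adjusted P value 0.0425), and 2.01-fold less cALT2, a difference of -1.01 ± 0.24 (SE, limma adjusted P value 0.0466). All 4 fish fed LLH lay below all 4 fed HLL, as for 4.41% of sequences. This was an uncommon call, since 1.12% of sequences were called lower with LLH than with HLL and 0.65% and 0.64% had a more negative difference than cALT1 and cALT2. It was also close to the threshold, and was lost under 8 of 14 other settings for cALT1 and 9 of 14 for cALT2. For cALT1 it held without starved fish 1, starved fish 3, MHL fish 2 or LLH fish 4, and was lost without any one of the other 12 fish (adjusted P value 0.0525 to 0.1193, differences over all 16 omissions -1.18 to -0.81). For cALT2 it held without starved fish 1, MHL fish 2 or LLH fish 4 and was lost without any of the other 13 (0.0508 to 0.1278, differences -1.23 to -0.82). Read as LLH, the fish with 2 labels left differences of -0.94 (adjusted P value 0.2837) and -0.95 (0.3067).

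MHL and HLL livers differed by a similar amount without a call. Fish fed MHL had -0.82 ± 0.22 relative to HLL for cALT1 (SE, limma adjusted P value 0.0874, 95% interval -1.29 to -0.34) and -0.83 for cALT2 (adjusted P value 0.0922), and 0.817% of sequences were called lower in that comparison. All 4 fish fed MHL lay below all 4 fed HLL, at 15.66 or less against 15.83 or more for cALT1, a separation found for 4.07% of sequences. Without MHL fish 2, the highest of its group, cALT1 passed the threshold (-0.96, adjusted P value 0.0473). LLH and MHL livers overlapped, and the difference was -0.18 for both transcripts, with 95% intervals of -0.65 to 0.30 for cALT1 and -0.67 to 0.32 for cALT2 (0.00396% of sequences called). The order of these diets was not settled. Without LLH fish 2 the difference was 0.02 for both, and with the fish of 2 labels read as LLH it was -0.05 in the fit, while the plain cALT1 mean was then 15.23 ± 0.48 with LLH (SD, n = 5) and 15.20 ± 0.32 with MHL (SD, n = 4). On single arrays, MHL minus HLL was -1.12 and -0.85 for cALT1, and LLH minus MHL was -0.06 and -1.11. Between neighbours in the order of the means (starved, LLH, MHL, HLL), only starved fish and LLH differed past the threshold.

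**Figure D2:**
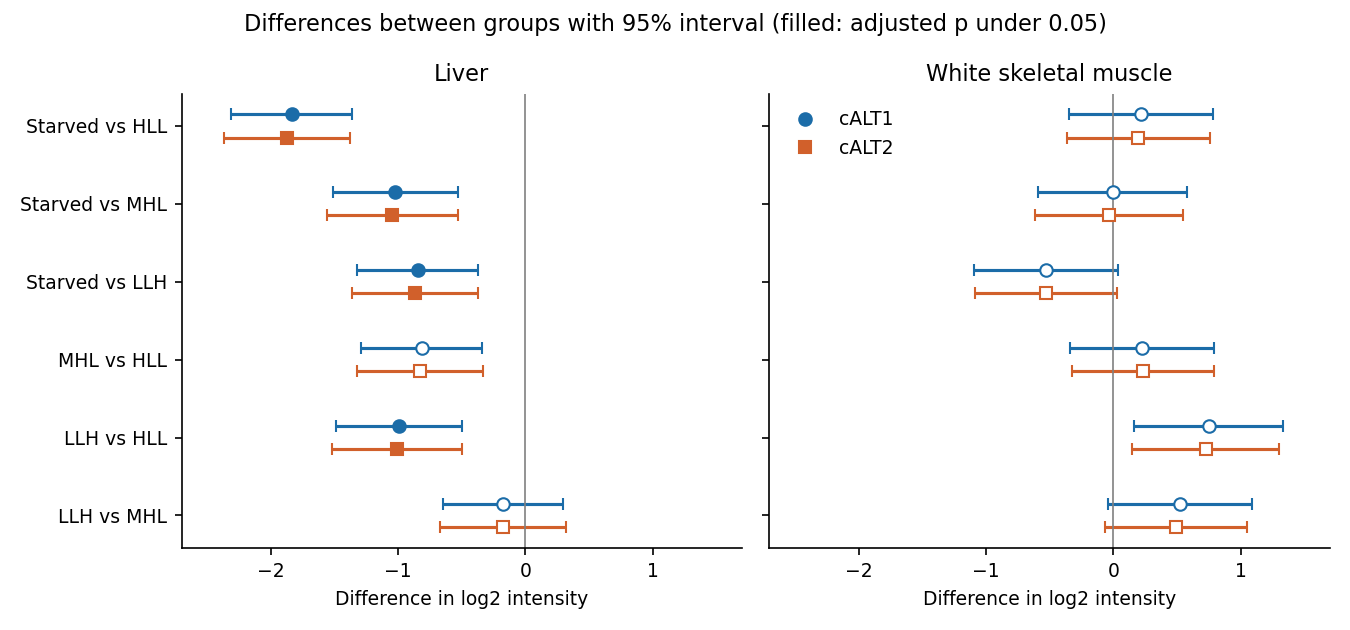
Differences in log2 intensity (horizontal axis) between groups for cALT1 and cALT2, with 95% intervals from limma. Filled symbols have an adjusted P value under 0.05. In the liver the 3 comparisons of starved fish with a diet and that of LLH with HLL are filled, with values between -1.87 and -0.84, whereas no comparison is filled in the muscle.

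Skeletal muscle did not show the pattern of the liver. In starved muscle cALT1 was at 12.05, 11.85, 11.75 and 12.03. It was at 12.58, 12.25, 12.05 and 12.90 in fish fed LLH, at 12.68, 11.09, 11.77 and 12.07 in fish fed MHL, and at 11.79, 11.33, 11.68 and 11.96 in fish fed HLL. Starved fish lay within a narrow range that overlapped the fish of each diet, though only starved fish 1 reached the lowest fish fed LLH, while the fish fed MHL were spread the most, with fish 1 the highest and fish 2 the lowest. The means were 11.92 ± 0.15 in starved fish, 12.44 ± 0.37 with LLH, 11.90 ± 0.66 with MHL and 11.69 ± 0.27 with HLL (SD, n = 4 each).

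cALT2 behaved alike in muscle. Starved fish had 12.09, 11.81, 11.80 and 12.07, against 12.60, 12.25, 12.05 and 12.94 with LLH, 12.75, 11.22, 11.72 and 12.14 with MHL, and 11.85, 11.45, 11.71 and 11.93 with HLL. MHL fish 1 and 2 were again the ends of their group, and the starved range again overlapped each diet. The means were 11.94 ± 0.16, 12.46 ± 0.40, 11.96 ± 0.65 and 11.74 ± 0.21 for starved, LLH, MHL and HLL fish (SD, n = 4 each).

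No muscle comparison passed the test for either transcript, in a tissue where starvation changed many sequences (36.6% were called in either direction against the mean of the diets). Against that mean, the starved fish differed by -0.11 for cALT1 (95% interval -0.57 to 0.36, limma adjusted P value 0.7662) and by -0.12 for cALT2 (95% interval -0.58 to 0.34, limma adjusted P value 0.7244). These intervals, against the mean of the diets, do not reach the liver values of -1.23 and -1.26. Against LLH alone, the muscle intervals (cALT1 -1.10 to 0.04, cALT2 -1.09 to 0.03) include the liver values of -0.84 and -0.87. Against single diets, cALT1 differed by 0.22 from HLL, by -0.01 from MHL and by -0.53 from LLH, and cALT2 by 0.20, -0.03 and -0.53 from the same diets, with adjusted P values from 0.1637 to 0.9918 (34.2%, 30.7% and 27.8% of sequences called against HLL, MHL and LLH). Starved minus LLH was -0.84 and -0.20 for cALT1 on the arrays that paired them, and starved minus HLL was 0.07 and 0.08.

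In muscle the highest levels were found with LLH, a diet with lower liver levels than HLL. LLH exceeded HLL by 0.75 ± 0.27 for cALT1 (SE, 1.68-fold, 95% interval 0.16 to 1.33) and by 0.73 ± 0.27 for cALT2 (SE, 1.65-fold, 95% interval 0.15 to 1.30). All 4 fish fed LLH lay above all 4 fed HLL, as for 4.10% of sequences. The unadjusted P values were 0.0166 and 0.0178, and after adjustment over all sequences they were 0.3189 and 0.3239 (limma). Few sequences separated these diets in muscle (0.238% called), and 99.0% and 98.91% of sequences had a lower difference than cALT1 and cALT2. Without normalisation between arrays, LLH exceeded HLL with adjusted P values of 0.0246 and 0.0182, and starved minus LLH was -0.57 (0.0097) and -0.58 (0.0080). With that setting 1419 sequences were called between LLH and HLL, against 60 otherwise. MHL exceeded HLL by 0.22 and 0.23 for cALT1 and cALT2 (0.0159% of sequences called), and LLH exceeded MHL by 0.52 and 0.50. In this last comparison limma called 0 sequences (0%), and 1553 had an unadjusted P value under 0.05.

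The response to starvation, taken against the mean of the diets, differed between the tissues. In a fit of both tissues, the starved minus fed difference in liver less that in muscle was -1.13 ± 0.30 for cALT1 (SE, limma adjusted P value 0.0037, 95% interval -1.75 to -0.51) and -1.14 ± 0.30 for cALT2 (SE, limma adjusted P value 0.0038). This held without any single fish and under all 14 other settings. Sequences called in that direction made up 19.4% of all. The effect of starvation against single diets was not tested between tissues. For cALT1, starved minus HLL was -1.84 in liver and 0.22 in muscle, and starved minus MHL was -1.02 and -0.01. Starved minus LLH was closer between tissues, at -0.84 and -0.53 (cALT2 -0.87 and -0.53). The labels do not say whether the liver and muscle of a condition came from the same fish. The fit took them as separate fish, so any such pairing is left out of the SE and P values of all comparisons between tissues.

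The levels themselves were higher in liver, and the gap was smaller in starved fish. Normalised together, cALT1 averaged 13.88 ± 0.43 in starved livers and 12.16 ± 0.17 in starved muscle (SD, n = 4 each), and 15.08 ± 0.51 in fed livers and 12.24 ± 0.56 in fed muscle (SD, n = 12 each). Liver exceeded muscle 3.27-fold in starved fish (log2 difference 1.71, limma adjusted P value 3.55e-06) and 7.17-fold in fed fish (2.84, limma adjusted P value 2.37e-14). For cALT2 the gap was 3.21-fold in starved fish (1.68) and 7.07-fold in fed fish (2.82). Without normalisation between arrays, the log2 differences were larger, at 2.22 and 2.17 in starved fish and 3.45 in fed fish for both transcripts. Among all sequences, 30.2% were called higher in liver in starved fish and 35.2% in fed fish. All liver arrays lay on 1 slide and all muscle arrays on another, so that tissue and slide cannot be told apart in these levels, whereas each slide held all 4 conditions.

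The contrast between LLH and HLL also differed between the tissues. The difference, LLH minus HLL in liver less the same in muscle, was -1.76 ± 0.38 for cALT1 (SE, limma adjusted P value 0.0170) and -1.75 ± 0.38 for cALT2 (SE, limma adjusted P value 0.0190), where 0.745% of sequences were called in that direction. This comparison was added after the values had been seen. It held without any single fish, and it lost the call with log ratios (adjusted P value 0.1394 and 0.1430), with the authors' ratios (0.1486 for both) and with the doubly labelled fish read as LLH (0.0743 and 0.0783). For MHL against HLL the corresponding values were -1.05 (adjusted P value 0.1547) and -1.07 (0.1486), with 1.05% of sequences called in either direction.

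cALT1 and cALT2 moved together fish by fish. Over the 16 livers the correlation was 0.998, the highest that either had with any other sequence, and over the 16 muscles it was 0.994. These correlations are a description, since both sequences were read in the same hybridisations, and probes of transcripts of a single gene may bind both. After the mean of each condition was removed, the correlations were 0.989 in liver and 0.991 in muscle. Some probes of different sequences differed by less than probes of the same sequence. In liver the SD of the difference over 16 channels was 0.0465 to 0.140 between a cALT1 and a cALT2 probe, and 0.121 and 0.123 between the probes of 1 sequence. In muscle these SDs were 0.0609 to 0.120 and 0.103 to 0.122. The smallest SD of each tissue, 0.0465 and 0.0609, came from the same pair of a cALT1 and a cALT2 probe. Between the duplicate spots of a probe, taken singly, the SD was 0.047 to 0.125 in liver and 0.0657 to 0.174 in muscle. These spot SDs are not set against the SDs between probes, which come from averaged duplicate spots. The sequences of the probes were not available here to tell which transcript each can bind.

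All 4 probes gave the result in liver. The starved fish differed from HLL by -1.91 and -1.76 with the cALT1 probes and by -1.92 and -1.82 with the cALT2 probes, and each of the 4 was called against each diet when probes were tested singly (10.9% of probes were called lower than with HLL, 10.1% than with MHL and 9.61% than with LLH). For LLH against HLL, where 0.907% of probes were called lower, 1 probe of each sequence passed (adjusted P value 0.0414 for cALT1 and 0.0470 for cALT2 by limma over 49373 probes), and the other did not (0.0598 and 0.0613).

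The difference between the cALT1 and cALT2 signals did not vary detectably between starved and fed fish. It is not a measure of the balance of the transcripts, because which transcript each probe binds is not known. Probes that bind both would give a difference near 0 whatever that balance. With each sequence centred on its mean over 16 fish, cALT1 minus cALT2 averaged 0.018 ± 0.048 in starved livers (SD, n = 4) and -0.006 ± 0.052 in fed livers (SD, n = 12). The starved minus fed difference was 0.024 (two-sided exact permutation test, p = 0.4302, adjusted over both tissues 0.5082). In muscle the averages were 0.015 ± 0.041 in starved and -0.005 ± 0.055 in fed fish, with a difference of 0.020 (two-sided exact permutation test, p = 0.5082). No fish departed from 0 by more than 0.10 in either tissue, from -0.099 to 0.061 in liver and from -0.091 to 0.087 in muscle.

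**Figure D3:**
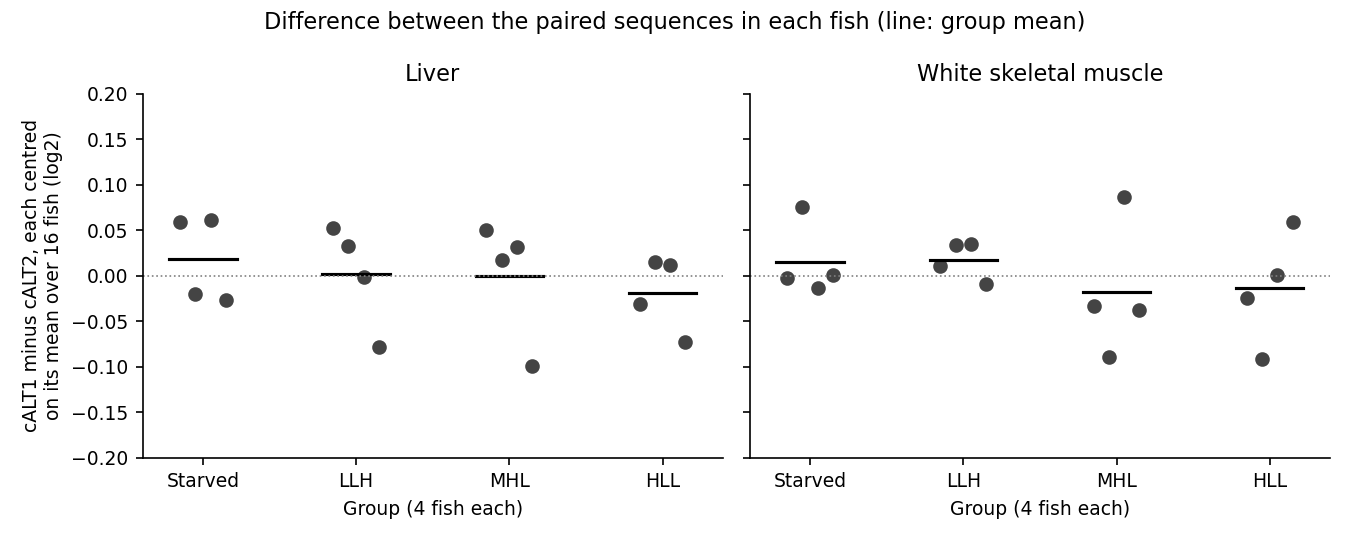
cALT1 minus cALT2 on the log2 scale (vertical axis), after centring each sequence on its mean over 16 fish, for each fish of the 4 conditions, with a line at the group mean. All points lie between -0.10 and 0.09, and starved and fed fish overlap in both tissues.

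The mitochondrial form gave another picture. mALT levels in liver averaged 14.20 ± 0.21 in starved fish, 13.88 ± 0.10 with LLH, 14.04 ± 0.27 with MHL and 13.91 ± 0.33 with HLL (SD, n = 4 each), and the difference between starved fish and the mean of the diets was 0.23, which did not pass the test. In muscle mALT averaged 13.21 ± 0.05 in starved fish, 11.28 ± 0.13 with LLH, 11.10 ± 0.19 with MHL and 10.76 ± 0.17 with HLL (SD, n = 4 each). Starved muscle was higher than the mean of the diets by 2.15 ± 0.08 on the log2 scale (SE, limma adjusted P value 2.69e-09), where 19.1% of sequences were called higher. The cytosolic transcripts were thus called in the liver and not in the muscle, and mALT in the muscle and not in the liver. For mALT the starved minus fed difference in liver less that in muscle was -1.96 ± 0.16 (SE, limma adjusted P value 5.21e-10), negative as for the cytosolic forms, with the change lying in the muscle. Over the 16 fish, the correlation of mALT with cALT1 was -0.318 in liver and 0.099 in muscle. After the mean of each condition was removed, this correlation was 0.152 in liver and 0.728 in muscle. With cALT2 it was then 0.148 and 0.734. These values too describe sequences read in the same hybridisations.

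Of the 6 other sequences that the array lists by gene symbol, 4 were called lower and none higher in starved livers against the mean of the diets, where 14.1% of all sequences were called lower and 14.9% higher. The 4 included PKL, the liver-type pyruvate kinase that completes glycolysis (-0.80, limma adjusted P value 7.04e-04), and ACC2, an acetyl-CoA carboxylase isoform linked to the control of fatty acid oxidation (-0.15, limma adjusted P value 0.0217, with 27 of 64 spots well above background). The other 2 were ACC1tv1 and ACC1tv2, transcript variants of the acetyl-CoA carboxylase of fatty acid synthesis, for which 0 of 16 spots were well above background in starved livers and no fold is given. The same pair was called lower with LLH (1.12% of sequences) and with MHL (0.817%) than with HLL. Many of these spots were also near background. For ACC1tv1, 2 of 16 spots were well above it with LLH, 0 of 16 with MHL and 8 of 16 with HLL. For ACC1tv2 these were 14, 9 and 16 of 16. With the doubly labelled fish read as LLH, 1 of all sequences was called between LLH and HLL, so that at most 1 of the pair kept that call. The same reading left 54 sequences called between MHL and HLL. Log ratios left 3 sequences called between LLH and HLL and 2 between MHL and HLL. The pair itself was not followed under these settings. In muscle mALT was called higher and PKM, a pyruvate kinase of the muscle type, lower (-0.08, limma adjusted P value 0.0169, 39 of 64 spots well above background), where 19.1% of sequences were called higher and 17.5% lower.

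**Figure D4:**
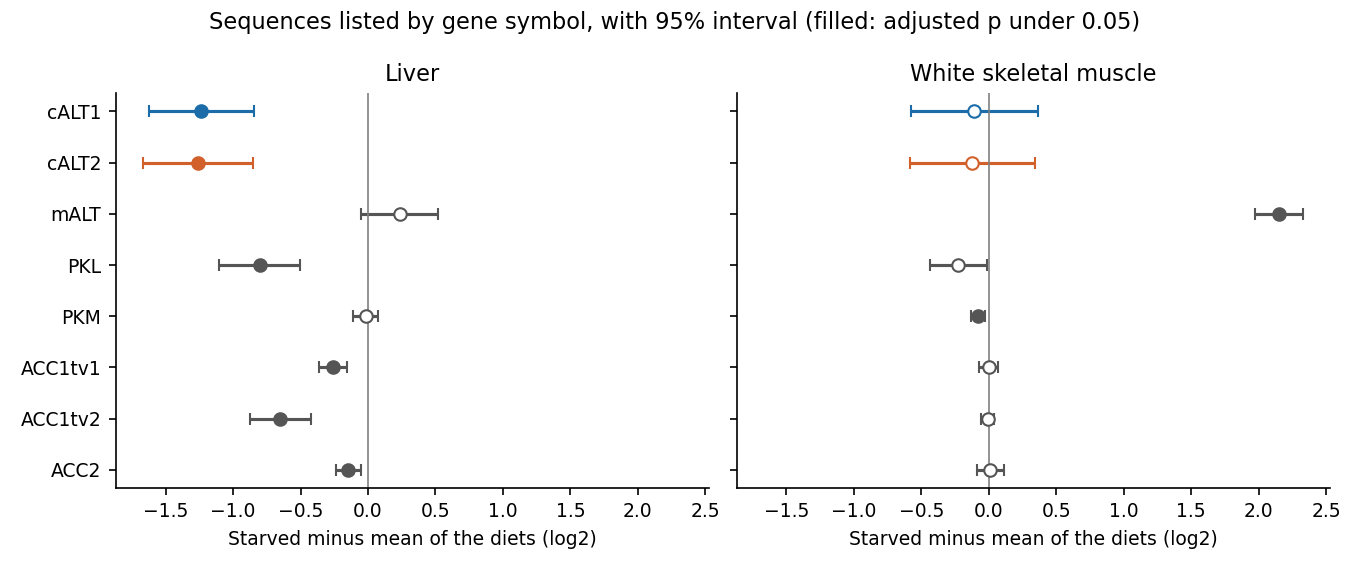
Difference in log2 intensity between starved fish and the mean of the diets (horizontal axis), with 95% intervals, for the 8 sequences listed by gene symbol. Filled symbols have an adjusted P value under 0.05. cALT1 (-1.23) and cALT2 (-1.26) have the lowest plotted values in liver, and mALT (2.15) stands apart in muscle. In starved livers 0 of 16 spots of ACC1tv1 and 0 of 16 of ACC1tv2 were well above background, so the size of their fall is not known.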

How the data were processed

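The authors hybridised liver and muscle RNA of single fish on two-colour Agilent arrays in a double loop with dye swap and read them with Agilent Feature Extraction 10.7. The deposited scanner output holds raw median intensities of spot and background, processed intensities and a log10 ratio of Cy5 over Cy3, which was used only to match the rows of the authors' table. Normalised log2 ratios, deposited by the authors as a separate table, served as an alternative.

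With R 4.3.3, limma 3.58.1 and statmod 1.5.0, median intensities were background-corrected (normexp, offset 50), 1319 control spots were left out, flagged outlier spots were set to missing, and Loess was applied within and Aquantile between arrays. Duplicate spots were averaged, as were the probes of a sequence after removal of each probe's mean. The log2 intensities of both channels were fitted with terms for condition and dye and a random block per array (correlation 0.165 in liver, 0.157 in muscle and 0.158 over both tissues, estimated from 5000 sequences). Tests were moderated, two-sided and adjusted by Benjamini-Hochberg over all sequences (25225 in liver), with a threshold of 0.05. The scripts were tested on simulated data. Alternatives changed the dye term, block, background correction, normalisation, probe filter, probe choice and outlier handling, used log ratios or the authors' ratios, relabelled 1 fish, or left out each fish in turn. Sequences were named by symbol only. The sequences examined and the lists were chosen with earlier results of these data known.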

Additional observations from a re-analysis of the deposited data

Results flagged for a closer look

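In starved livers the cALT2 level of fish 1 lay far below the other 3 fish of its group, at 13.55 against 14.38 for the nearest, and the gap was 0.869 of the group's range, over Dixon's 95% limit for 4 samples. The same fish was the lowest for cALT1 (13.60 against 14.33), where the gap was 0.777 of the range and under the limit. Of 24 groups examined in this way 2 were over the limit, and chance alone gives about 1 in 20. The other was the difference cALT1 minus cALT2 in starved muscle, where fish 2 was at 0.0753 and the nearest fish at 0.0009 (0.837 of the range). Without starved fish 1, each of the calls for starved livers was kept.

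The effect of starvation against the mean of the diets differed between tissues by -1.13 for cALT1 and -1.14 for cALT2 (liver minus muscle, log2). That of LLH against HLL differed by -1.76 and -1.75. Both are tests of the difference itself, and the second was added after the values had been seen.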

How the results depend on the processing

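No called value reversed its direction under any alternative. In liver, starved against HLL, MHL and the mean of the diets kept its call in all 14 settings (cALT1 against HLL -2.13 to -1.54, cALT2 -2.16 to -1.58) and without any fish. Starved against LLH was lost with log ratios (-0.79 and -0.84 for cALT1 and cALT2) and the authors' ratios (-0.76 and -0.81), and without a fish ranged over -1.01 to -0.64 and -1.04 to -0.63. LLH against HLL in liver was the least stable. It was lost for both without the dye term (-0.94 and -0.96), with processed signals (-0.95 and -0.98), median centring (-0.88 and -0.91), quantile normalisation (-0.93 and -0.95), log ratios (-1.33 and -1.32), the authors' ratios (-1.36 and -1.35) and the relabelled fish (-0.94 and -0.95), for cALT2 with a normexp offset of 0 (-1.0025), and without a fish it ranged over -1.18 to -0.81 and -1.23 to -0.82. MHL against HLL ranged over -0.96 to -0.72 for cALT1 without a fish. Without normalisation between arrays, muscle gained calls for starved against LLH (-0.57 and -0.58) and LLH against HLL (0.73 and 0.76), and MHL against HLL, liver minus muscle, was -1.11 and -1.12. LLH against HLL, liver minus muscle, lost its call with log ratios (-2.04 and -2.06), the authors' ratios (-2.08 and -2.10) and the relabelled fish (-1.72 and -1.70).

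With the fish number as a replicate block, LLH against HLL in liver was lost (cALT1 -0.94, adjusted p 0.0944; cALT2 -0.96, 0.0882), and 38 of the 40 results kept their side of the threshold. The labels do not say that a number marks a shared origin. In liver 5 of 8 pairs of the same number on the same array and 3 of 16 on different arrays had deviations correlated over 0.1. In muscle these were 4 of 4 and 7 of 20, and 1 of 4 pairs of different numbers on the same array. Pairs of different numbers on different arrays were over 0.1 in 16 of 72 cases in liver and 17 of 68 in muscle. Every liver array held fish of the same number, so number and array cannot be told apart in its same-array pairs. Since not every pair of the same number was over 0.1 in either tissue, the numbers were not taken as pairs. These counts are no test of pairing.

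The counts of called sequences moved by more than 1.5 times under some settings. With log ratios, liver calls were 3234 for starved against HLL, 1995 against MHL, 2676 against LLH and 4066 against the mean, in place of 6407, 5885, 5733 and 7324, and median centring gave 11051 against the mean. In muscle, log ratios gave 5696, 3574, 4164 and 5953 in place of 8636, 7743, 7005 and 9224. The authors' ratios gave 3258, 2169, 2909 and 4134 in liver and 4013 for starved against MHL in muscle. LLH against HLL in liver had 552 calls, and 1 to 362 under the 9 settings that moved it by so much, and MHL against HLL had 390 and 2 to 177. In muscle LLH against HLL had 60 calls, 434 with the replicate block, 31 with processed signals, and at most 4 with the authors' ratios or log ratios. MHL against HLL had 4, and 946 without normalisation between arrays. Liver minus muscle in fed fish had 18527 calls, and 12124 without normalisation between arrays. Between diets compared across tissues, LLH against HLL had 341 calls and 1 to 894 elsewhere. The causes were not tested.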

Other observations

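The sequence whose liver pattern was most like both cytosolic forms, after each other, was isotig06729, an identifier of the assembled transcriptome that carries no gene name in the files. It was singled out after its values were seen. Its correlation over the 16 livers was 0.995 with cALT1 and 0.994 with cALT2, and over the 16 muscles 0.987 and 0.982, given as a description of the same hybridisations. Starved livers had less of it than livers of fish fed HLL (-1.98, adjusted P value 7.33e-05 by limma) and than the mean of the diets (-1.32, adjusted P value 2.36e-04), and in muscle it differed from the mean of the diets by -0.08 (limma adjusted P value 0.8211). In liver 30 of 25224 sequences had a correlation above 0.9 with cALT1 and 21 with cALT2, against 2 of 25221 each in muscle. These counts include the other cytosolic form and isotig06729, which were the 2 in muscle.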
